A study of Homo sapiens with 21 samples.

Results

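The transcripts of 8 lysophospholipid acyltransferase genes were followed in HEK 293FT cells that had received short hairpin RNAs or the RNA-cutting CRISPR nuclease RfxCasR. The genes are LPCAT1, LPCAT2, LPCAT3, LPCAT4, MBOAT1, MBOAT2, MBOAT7 and LPGAT1, chosen by symbol from the 27142 genes of the expression table. The choice was made because LPCAT3 was low with the non-targeting shRNA, so its values in those libraries are a description and carry no test. All 8 genes were among the 13679 that reached 1 FPKM (fragments per kilobase of exon per M fragments) in at least 3 libraries, and all 8 were at or above 1 FPKM in each of the 21 libraries.

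Cells rebuild their membrane phospholipids in a deacylation and reacylation cycle, the Lands cycle. Phospholipases A2 remove a fatty acid to leave a lysophospholipid, and lysophospholipid acyltransferases put a new one on, taken from an acyl-CoA. The enzymes fall into the AGPAT family, which holds LPCAT1, LPCAT2, LPCAT4 and LPGAT1, and the MBOAT family of membrane-bound O-acyltransferases, which holds LPCAT3, MBOAT1, MBOAT2 and MBOAT7. Each prefers certain head groups and fatty acids, so that the set a cell expresses bears on how saturated its membranes are.

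HEK 293FT is a human embryonic kidney line that carries the SV40 large T antigen. Plasmids were introduced with a Lipofectamine reagent, and RNA was taken 48 h later, in 7 groups of 3 libraries. In 3 groups the plasmid expressed an shRNA, which was non-targeting (NT), against ANXA4 or against B4GALNT1. In the other 4 it expressed RfxCasR with an NT guide RNA (gRNA), a B4GALNT1 gRNA, an NT array of guides or an ANXA4 array. The plasmids were delivered transiently and RNA was taken in bulk. In bulk RNA, fewer expressing cells and less RNA per cell cannot be told apart.

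The libraries held 21.4 to 30.7 M reads (15 libraries, shRNA or single guide) or 34.7 to 39.5 M (6 libraries, arrays), as worked back from FPKM. For the 8 members these recovered reads were 1.85 to 2.14 times the mean normalized counts in the authors' deposited tables, for a reason not given in the sources used here, so read numbers are certain only up to that factor. ANXA4 was at 2.40 ± 0.22 FPKM (SD, n = 3) with its shRNA and 5.90 ± 0.378 with the NT shRNA. B4GALNT1 was at 2.78 ± 0.183 FPKM with its shRNA against 4.08 ± 0.179 with the NT shRNA, and at 2.21 ± 0.167 with its gRNA against 5.89 ± 0.907 with the NT gRNA. The array libraries go against their labels, since the mean ANXA4 level was 7.03 ± 0.24 FPKM under the ANXA4 label but 3.03 ± 0.427 under the NT label. Of 11 markers chosen for HEK identity, 8 were at or above 1 FPKM in all 21 libraries, with PAX2, LHX1 and SALL4 below it in at least 1. HBB was listed at 0 in every library, PTPRC reached at most 0.045 FPKM, and PECAM1 at most 0.129.

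LPCAT3 encodes the endoplasmic reticulum enzyme that places polyunsaturated fatty acids on lysophosphatidylcholine, and it is a known target gene of the liver X receptors. Its row (NM_005768) covers hg19 chromosome 12, 7085347 to 7125842, on the minus strand, with 2282 bases of exon, and its values rested on 295 to 1563 reads per library. With the NT shRNA the 3 libraries were at 6.40, 5.69 and 6.12 FPKM, a mean of 6.07 ± 0.36 (SD, n = 3). With the ANXA4 shRNA they were at 22.5, 23.8 and 20.9 FPKM, a mean of 22.4 ± 1.46. With the B4GALNT1 shRNA they were at 17.3, 17.4 and 16.4 FPKM, a mean of 17.1 ± 0.54. The NT shRNA libraries therefore lay below every other library, as did those of 6.94% of genes, and the ANXA4 shRNA libraries above every other, as did those of 9.51% of genes.

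The RfxCasR libraries lay between these. With the NT gRNA LPCAT3 was at 16.1, 15.6 and 17.5 FPKM (mean 16.4 ± 0.979, n = 3). With the B4GALNT1 gRNA it was at 17.3, 16.5 and 15.6 FPKM (mean 16.5 ± 0.841). The libraries labelled NT array gave 15.7, 14.4 and 16.1 FPKM (mean 15.4 ± 0.858), and those labelled ANXA4 array 16.1, 18.3 and 17.4 FPKM (mean 17.3 ± 1.09). In the order of the group means, from NT shRNA through NT array, NT gRNA, B4GALNT1 gRNA, B4GALNT1 shRNA and ANXA4 array to ANXA4 shRNA, only the lowest and the highest group did not overlap their neighbour. The next group above NT shRNA was 9.33 FPKM higher, and the step up to ANXA4 shRNA was 5.13 FPKM.

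**Figure D1:**
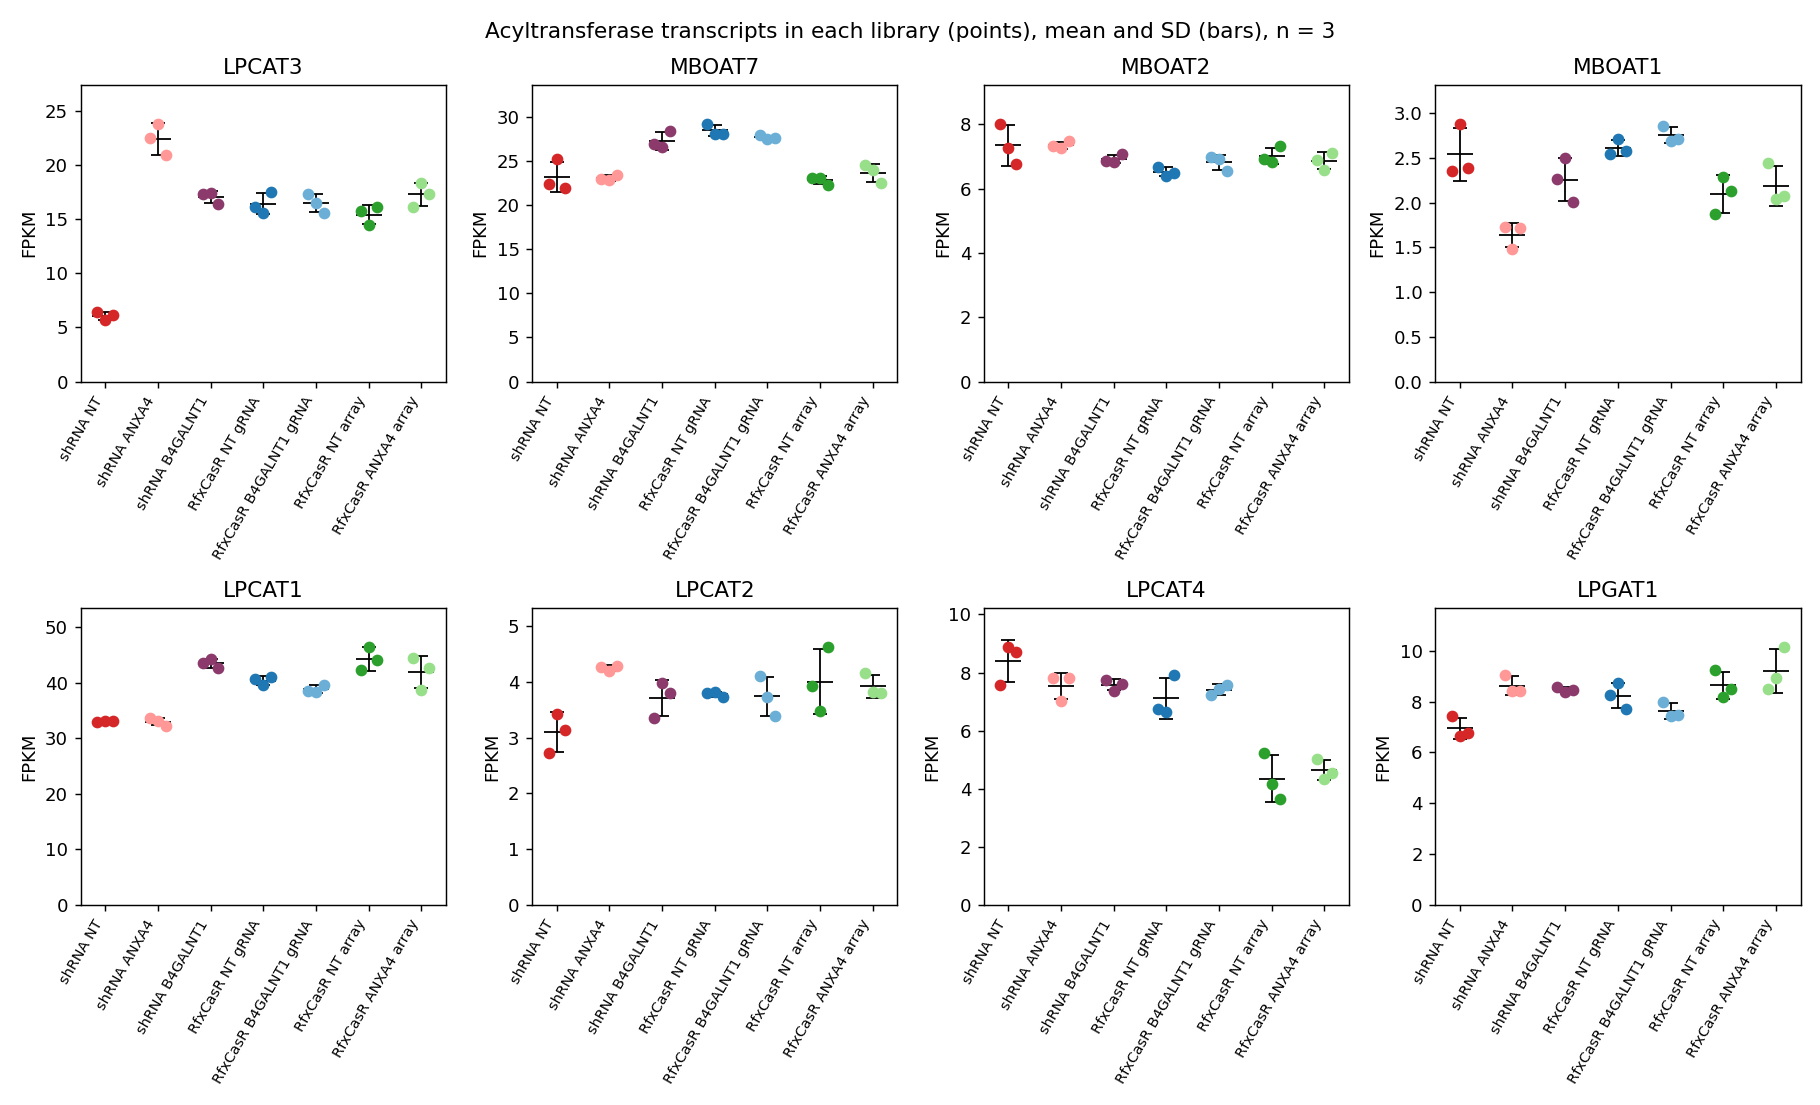
FPKM of each of the 8 acyltransferase genes (y axis, from 0) in the 21 libraries by group (x axis). Points are libraries, and the black bars are the mean and SD of 3. LPCAT3 has 3 points near 6 FPKM with the NT shRNA, and 18 points at 14.4 FPKM or more elsewhere, while LPCAT4 is lowest in the 6 array libraries.

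The group means of LPCAT3 spanned a ratio of 3.69, and a ratio of 1.45 without the NT shRNA group. On a log2(FPKM + 1) scale, where changes of weakly expressed genes are understated, its range over the 7 groups was 1.73, more than that of 99.3% of the genes tested. The lower end of this range is the NT shRNA group, for whose low values LPCAT3 was chosen. The share is therefore only a description. The median gene had a range of 0.52. Without the NT shRNA group the range of LPCAT3 was 0.51, above 58.2% of genes, with a median gene at 0.46. The other 7 members had ranges of 0.15 (MBOAT2) to 0.82 (LPCAT4) over the 7 groups.

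Other values were also low with the NT shRNA. The 11 HEK identity markers summed to 582 to 605 FPKM in its 3 libraries and to 760 to 906 in the other 18, so the sum was low together with LPCAT3 in the NT shRNA group, and its part in that result was not tested. The ANXA4 shRNA libraries, highest for LPCAT3, had sums of 760 to 787, and those labelled NT array 876 to 904. VIM alone was at 388 to 682 FPKM over the 21 libraries, so this gene made up much of each sum. The 4 blood markers summed to 1.19 to 1.39 FPKM with the NT shRNA, inside the range of 0.845 to 2.81 over the other groups. LPGAT1 was the other member with its 3 NT shRNA libraries below all others, by a small step from 7.42 to 7.43 FPKM. The lowest group mean was in the NT shRNA group for 3 of 8 members (LPCAT2, LPCAT3 and LPGAT1) and for 16.7% of genes.

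Because FPKM is per length, the levels of the members can be set beside each other. LPCAT1 was the most abundant in every library, at 32.3 to 46.5 FPKM, and MBOAT1 the least, at 1.48 to 2.88. The 8 genes summed to 90.6 ± 2.15 FPKM with the NT shRNA and to 108 to 117 FPKM in the other groups. LPCAT3 made up 6.71% ± 0.528 of that sum with the NT shRNA and 20.8% ± 1.19 with the ANXA4 shRNA, against 14.2% to 15.8% in the other 5 groups. It ranked sixth of the 8 in the NT shRNA libraries, at rank 2 or 3 with the ANXA4 shRNA, and at rank 3 in all other libraries.

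MBOAT7, which attaches arachidonic acid to lysophosphatidylinositol, had the highest mean of the MBOAT members in each of the 7 groups (NM_024298, hg19 chromosome 19, 54677106 to 54693733, minus strand). It was at 22.4, 25.2 and 22.0 FPKM with the NT shRNA, 22.9, 22.9 and 23.5 with the ANXA4 shRNA, and 26.9, 26.6 and 28.5 with the B4GALNT1 shRNA. It was at 29.2, 28.1 and 28.1 FPKM with the NT gRNA and 27.9, 27.5 and 27.6 with the B4GALNT1 gRNA. In the array libraries it was at 23.1, 23.1 and 22.3 FPKM under the NT label and 24.5, 24.0 and 22.5 under the ANXA4 label. Its groups thus formed a lower set, of the NT and ANXA4 shRNA and both arrays, and a higher set, of the B4GALNT1 shRNA and both single guides, with no overlap between the sets, a grouping seen only after the values and shared by 1.04% of genes.

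MBOAT1, which prefers oleic acid and acts on lysophosphatidylethanolamine and lysophosphatidylserine, showed a different order (NM_001080480, hg19 chromosome 6, 20099916 to 20212695, minus strand). With the ANXA4 shRNA it was at 1.72, 1.48 and 1.72 FPKM, below all 18 other libraries, as were 7.61% of genes. With the NT shRNA it was at 2.35, 2.88 and 2.38 FPKM, and with the B4GALNT1 shRNA at 2.26, 2.50 and 2.01. The single-guide groups overlapped the NT shRNA libraries, at 2.54, 2.71 and 2.58 FPKM with the NT gRNA and 2.86, 2.69 and 2.71 with the B4GALNT1 gRNA. The arrays gave 1.87, 2.29 and 2.12 FPKM under the NT label and 2.44, 2.04 and 2.07 under the ANXA4 label. At these levels MBOAT1 rested on 136 to 377 reads per library.

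MBOAT2, which acts with oleic acid on lysophosphatidylethanolamine and lysophosphatidylcholine, varied least (row NR_135604, a non-coding transcript record of the gene, hg19 chromosome 2, 8992820 to 9143879, minus strand). Its 21 libraries lay between 6.40 and 8.03 FPKM, and its group means between 6.53 (NT gRNA) and 7.35 FPKM (NT and ANXA4 shRNA). All neighbours in its order of groups overlapped.

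LPCAT1, known from lung surfactant, where it makes dipalmitoyl phosphatidylcholine, had a pattern unlike that of LPCAT3 (NM_024830, hg19 chromosome 5, 1461538 to 1524092, minus strand). With the NT shRNA it was at 32.9, 33.0 and 33.1 FPKM, and with the ANXA4 shRNA at 33.6, 33.1 and 32.3. With the B4GALNT1 shRNA it was at 43.5, 44.3 and 42.6 FPKM, with the NT gRNA at 40.6, 39.5 and 41.0, and with the B4GALNT1 gRNA at 38.6, 38.4 and 39.7. The array libraries lay at 42.2, 46.5 and 44.2 FPKM (labelled NT) and 44.4, 38.7 and 42.7 (labelled ANXA4). The NT and ANXA4 shRNA libraries, which held the lowest and the highest LPCAT3 values, were thus the lowest for LPCAT1 and lay below all other 15. That grouping was seen only after the values, and 1.85% of genes had it.

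LPCAT2, which also makes platelet-activating factor, was low throughout (NM_017839, hg19 chromosome 16, 55542913 to 55620582, plus strand). It was at 2.73, 3.43 and 3.14 FPKM with the NT shRNA and at 4.27, 4.19 and 4.29 with the ANXA4 shRNA. The other 15 libraries lay between 3.34 and 4.63 FPKM, and each group overlapped its neighbour in the order of means.

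LPCAT4, which prefers oleic acid, separated the arrays from the rest (NM_153613, hg19 chromosome 15, 34651089 to 34659395, minus strand). It was at 5.24, 4.15 and 3.64 FPKM in the libraries labelled NT array and 5.03, 4.33 and 4.55 in those labelled ANXA4 array. The other 15 libraries lay between 6.65 and 8.88 FPKM, with the NT shRNA group highest at 8.39 ± 0.715 (n = 3). This grouping was also noticed in the values, and 11.9% of genes had their 6 array libraries below all others. The array libraries were also the deepest of the series, and that difference in depth cannot be told apart from the arrays.

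LPGAT1 encodes an acyltransferase of lysophosphatidylglycerol (NM_014873, hg19 chromosome 1, 211916799 to 212004114, minus strand). It was at 7.42, 6.66 and 6.77 FPKM with the NT shRNA, and between 7.43 and 10.2 FPKM in the other 18 libraries. The next group up, the B4GALNT1 gRNA, was at 7.99, 7.43 and 7.48 FPKM. The remaining groups had means of 8.24 to 9.19 FPKM and overlapped their neighbours.

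Between the ANXA4 and the B4GALNT1 shRNA, a comparison without the NT shRNA libraries, LPCAT3 was higher with the ANXA4 shRNA while LPCAT1, MBOAT7 and MBOAT1 were lower. LPCAT3 rose by 0.37 on the log2(FPKM + 1) scale (SE 0.0607, limma adjusted p = 5.19e-05). LPCAT1 fell by 0.39 (SE 0.0424, adjusted p = 4.26e-07), MBOAT7 by 0.23 (SE 0.0447, adjusted p = 0.000293) and MBOAT1 by 0.30 (SE 0.0793, adjusted p = 0.00403). For MBOAT1 the difference was -0.49 with voom on the recovered reads. The groups of these 4 genes did not overlap. Thus 4 of 8 members were called (1 higher, 3 lower), beside 46.7% of all genes (27.1% higher, 19.6% lower), and 6 of 8 did not overlap, beside 56.4% of all genes, so the share of members is near the background. The split of all calls in this comparison was 58.0% higher, and 48.0% with libraries centred on their median.

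The other 4 members were not called there. The difference was 0.16 for LPCAT2 (95% interval -0.01 to 0.33), 0.08 for MBOAT2 (-0.03 to 0.18), 0.02 for LPGAT1 (-0.11 to 0.15) and -0.01 for LPCAT4 (-0.19 to 0.17). The libraries of LPCAT2 and MBOAT2 did not overlap between the groups, although neither passed the test.

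The ANXA4 shRNA was also compared with RfxCasR and its NT gRNA, which shares the ANXA4 shRNA libraries with the comparison above and so is no separate support for it. LPCAT3 rose by 0.43 (SE 0.0607, limma adjusted p = 9.57e-06). LPCAT1 fell by 0.28 (SE 0.0424, adjusted p = 1.7e-05), MBOAT7 by 0.29 (SE 0.0447, adjusted p = 2.26e-05) and MBOAT1 by 0.45 (SE 0.0793, adjusted p = 9.4e-05). MBOAT2 rose by 0.15 (SE 0.0515, adjusted p = 0.0189), a call that was lost without ANXA4 shRNA replicate 3 (0.14, adjusted p = 0.0572), without NT gRNA replicate 2 (0.14, adjusted p = 0.0606) and with libraries centred on their median (0.11, adjusted p = 0.0719). With voom on the recovered reads, MBOAT1 differed by -0.69. Here 5 of 8 members were called (2 higher, 3 lower), beside 54.0% of genes (29.0% higher, 25.0% lower), and 6 of 8 did not overlap, beside 63.7%. Calls in the higher direction were 53.7% of all calls, and 45.9% with libraries centred on their median.

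**Figure D2:**
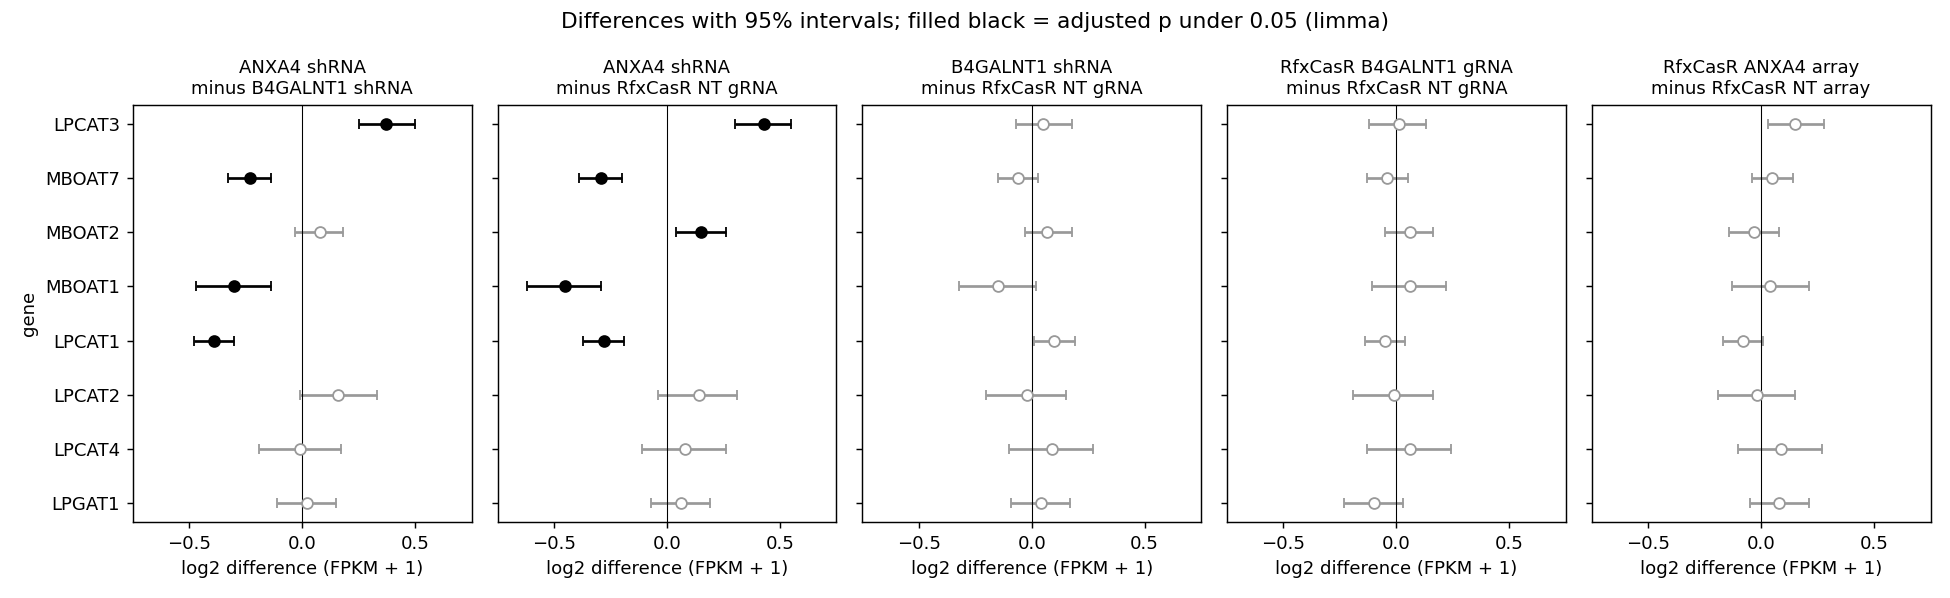
Log2 differences of FPKM + 1 (x axis) for the 8 genes (y axis) in the 5 comparisons without the NT shRNA libraries, with 95% intervals; filled black points passed an adjusted p of 0.05. LPCAT3 lies to the right at 0.37 and 0.43 in the first 2 panels, where LPCAT1, MBOAT7 and MBOAT1 lie to the left, and no gene passed in the other 3.

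The B4GALNT1 shRNA and the RfxCasR NT gRNA gave like levels of LPCAT3, with 17.1 and 16.4 FPKM and a difference of 0.05 (95% interval -0.07 to 0.18, limma adjusted p = 0.507). None of the 8 members was called, although 40.9% of genes were. At an unadjusted p under 0.05 there was 1 member, LPCAT1, at 0.10 (SE 0.0424, adjusted p = 0.0585). It was called with quantile normalization, voom on recovered reads, a model without the array libraries and a model of the groups compared alone, with differences of 0.10 to 0.12 and adjusted p of 0.00659 to 0.0383. The groups did not overlap for 3 of 8 members (LPCAT1, MBOAT1 and MBOAT2), beside 54.4% of genes.

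RfxCasR with the B4GALNT1 gRNA left all 8 members without a call against its NT gRNA. LPCAT3 differed by 0.01 (95% interval -0.12 to 0.13). The other 7 members had differences of -0.10 (LPGAT1, 95% interval -0.23 to 0.03) to 0.06 (LPCAT4, MBOAT1 and MBOAT2), all with a limma adjusted p of 1.0. In this comparison 0.00731% of genes were called, which is 1 gene, B4GALNT1 itself. At an unadjusted p under 0.05 there were 523 genes and 0 members, and voom on recovered reads and the authors' deposited table also called 0 members. The groups of 1 of 8 members (MBOAT7) did not overlap, beside 11.8% of genes.

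Between the libraries labelled ANXA4 array and NT array no member was called by limma, beside 0.285% of genes, nor by voom. At an unadjusted p under 0.05 there were 1474 genes. LPCAT3 differed by 0.15 (95% interval 0.03 to 0.28, adjusted p = 0.346), and it was the 1 member at an unadjusted p under 0.05 (0.0197) and the 1 member whose groups did not overlap, beside 10.3% of genes. The sign of each array difference follows the labels, against which ANXA4 itself goes. In the authors' deposited table for the arrays, LPCAT3 had a log2 fold change of -0.16 and ANXA4 one of -1.21, and none of the 8 members was called (each adjusted p 1.0), beside 0.0367% of its genes.

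The 3 comparisons with the NT shRNA use the libraries that chose the members, so their values are given without p. LPCAT3 was higher than with the NT shRNA by 1.73 (SE 0.0607) with the ANXA4 shRNA, by 1.35 with the B4GALNT1 shRNA and by 1.30 with the RfxCasR NT gRNA, in every case with no overlap. LPGAT1 was higher by 0.28, 0.25 and 0.22, with an SE of 0.0619 each. LPCAT1 differed by 0.00 with the ANXA4 shRNA and by 0.39 and 0.28 in the other 2. MBOAT7 likewise differed by 0.00, then by 0.23 and 0.29, and LPCAT2 by 0.36, 0.20 and 0.22.

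The counts of calls against the NT shRNA are given only beside those of all genes, and nothing is read from them, since these libraries chose the set. They numbered 4 of 8 members with the ANXA4 shRNA (3 higher, 1 lower), 4 with the B4GALNT1 shRNA (all higher) and 6 with the NT gRNA (5 higher, 1 lower). The shares of all genes called were 51.8% (25.6% higher, 26.3% lower), 44.4% (18.4% and 26.0%) and 48.9% (22.4% and 26.5%). Members whose groups did not overlap numbered 4, 4 and 6, beside 60.9%, 55.5% and 60.7% of genes. Calls in the higher direction made up 41.5% of all calls for the B4GALNT1 shRNA and 45.9% for the NT gRNA, and 53.3% and 56.4% with libraries centred on their median. The 1 member lower with the ANXA4 shRNA was MBOAT1 (-0.42), and the 1 lower with the NT gRNA was MBOAT2 (-0.15). The MBOAT2 call was lost without NT shRNA replicate 1 (-0.09), or without NT gRNA replicate 2 or 3. It was also lost with median centring, quantile normalization, a model of the groups compared alone and a threshold of 0.01. The LPCAT2 call with the NT gRNA was lost without NT shRNA replicate 1 or 3 or any 1 of the NT gRNA libraries. It was also lost with no filter and at a threshold of 0.01. With the NT gRNA, LPCAT4 (-0.21, not called) was called without NT shRNA replicate 1 or NT gRNA replicate 3. It was also called without the arrays and with 1 FPKM required in all 21 libraries. With the B4GALNT1 shRNA, LPCAT2 (0.20, not called) was called without NT shRNA replicate 2 or B4GALNT1 shRNA replicate 1, and also with 1 FPKM required in all 21 libraries, median centring, quantile normalization, no variance trend, voom, a model without the arrays and in the authors' deposited table. The difference between the B4GALNT1 effect by shRNA and by gRNA, which also uses the NT shRNA libraries, was called for 4 of 8 members, beside 29.8% of genes, and is likewise only a description.

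In the authors' deposited table for the ANXA4 shRNA, LPCAT3 had a log2 fold change of 1.89, LPCAT2 of 0.47, LPGAT1 of 0.32 and MBOAT1 of -0.62. In the authors' deposited table for the B4GALNT1 shRNA, LPCAT3 had 1.53, LPCAT1 0.44, LPGAT1 0.33, LPCAT2 0.30 and MBOAT7 0.28. The authors' deposited tables called 4 and 5 members, beside 45.1% and 39.0% of their genes. Both use the same NT shRNA libraries that chose the set, so these counts too are only a description and no separate support. For RfxCasR with the B4GALNT1 gRNA, the authors' deposited table gave LPCAT3 0.01 and called none, beside 0.0125% of its genes.

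The genes next to LPCAT3 on chromosome 12 were not low with the NT shRNA to the same extent. EMG1, a ribosome biogenesis methyltransferase on the plus strand, ends 181 bases from the LPCAT3 span and was at 40.9, 41.6 and 36.8 FPKM with the NT shRNA and 62.3, 60.5 and 59.5 with the ANXA4 shRNA. Its other group means were 42.2 to 52.3 FPKM, so EMG1 was highest with the ANXA4 shRNA, as LPCAT3 was, but its NT shRNA libraries overlapped those of other groups. PHB2, the prohibitin on the other side of EMG1, had group means of 298 to 359 FPKM with 310 for the NT shRNA. C1R, a complement protease 61672 bases away, had a mean of 6.90 ± 0.27 FPKM (n = 3) with the NT shRNA and means of 6.98 to 9.48 elsewhere. C1S, its neighbour 42122 bases from LPCAT3, was barely detected, at 0.64 FPKM with the NT shRNA and 0.663 to 1.28 elsewhere. Thus 3 of these 4 neighbours (EMG1, C1S and C1R) also had their lowest mean with the NT shRNA, each with overlap. In the expression table no other gene overlaps LPCAT3. The microRNA gene MIR6075 lies within LPCAT1 on the same strand at no more than 0.539 FPKM, and CAPNS2 within LPCAT2 at no more than 0.108 FPKM.

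**Figure D3:**
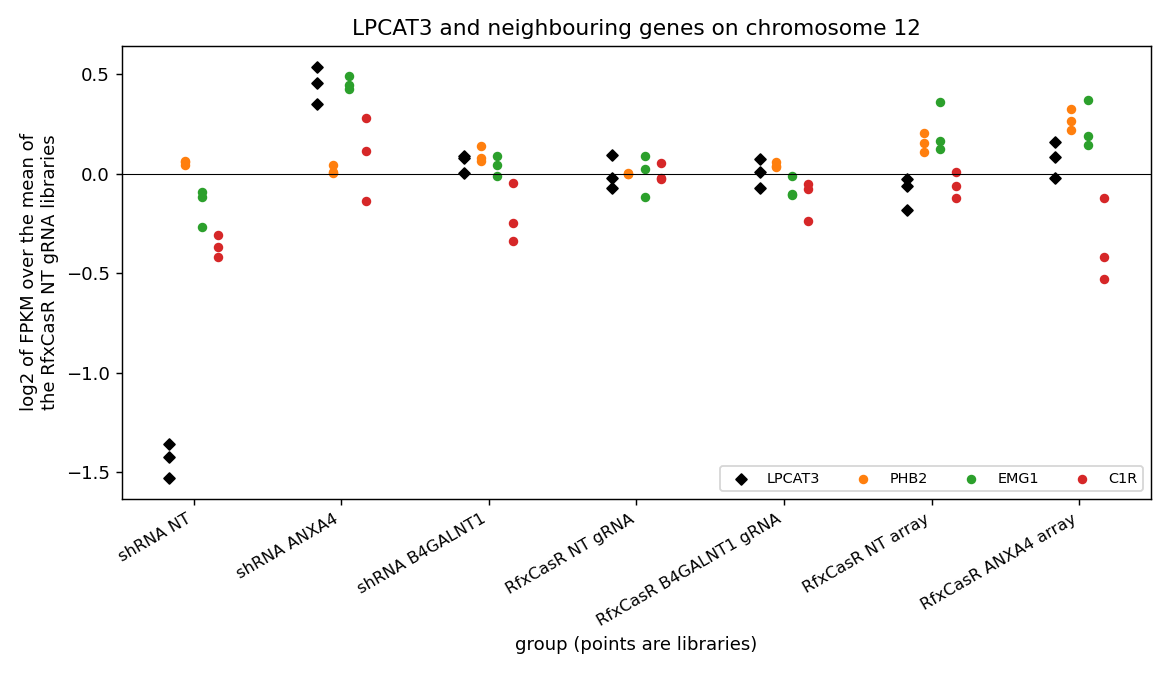
Log2 of FPKM relative to the mean of the RfxCasR NT gRNA libraries (y axis) for LPCAT3 (diamonds), PHB2, EMG1 and C1R (circles) by group (x axis), each point a library. The NT shRNA points of LPCAT3 (5.69 to 6.40 FPKM) lie far below its other points, while those of PHB2, EMG1 and C1R lie at or near the range of their other groups.

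The genes whose log2(FPKM + 1) followed LPCAT3 most closely over the 21 libraries were TPD52 (Pearson r 0.979), YWHAG (0.974), NEO1 (0.974), MKRN2 (0.97) and ELK1 (0.968). Each was low with the NT shRNA, which follows from choosing them by this correlation and is no separate finding. TPD52, a tumor protein D52 family member, was at 11.8, 11.3 and 11.5 FPKM there and at 27.1, 25.6 and 25.1 with the ANXA4 shRNA. MKRN2, a makorin ring finger protein, was at 10.1, 9.96 and 9.89 FPKM with the NT shRNA and at 24.5, 25.7 and 25.6 with the ANXA4 shRNA. The other group means were 21.1 to 22.3 FPKM for TPD52 and at most 24.1 for MKRN2.

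YWHAG, a 14-3-3 adaptor protein, had a mean of 52.6 ± 1.83 FPKM (n = 3) with the NT shRNA and 88.3 to 105 in the other groups. NEO1, the receptor neogenin, was at 10.7 ± 0.128 FPKM against 18.8 to 22.9. ELK1, an ETS transcription factor, was at 17.8, 17.9 and 18.2 FPKM against group means of 27.4 to 34.2. These correlations rest largely on the NT shRNA libraries, since over the other 18 libraries they were 0.717 to 0.79. The points are libraries in groups of 3 and so are not independent of the treatments. Over the same 18 libraries LPCAT1 had r -0.83 and MBOAT1 -0.69 with LPCAT3, against 0.34 and -0.46 over all 21.

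**Figure D4:**
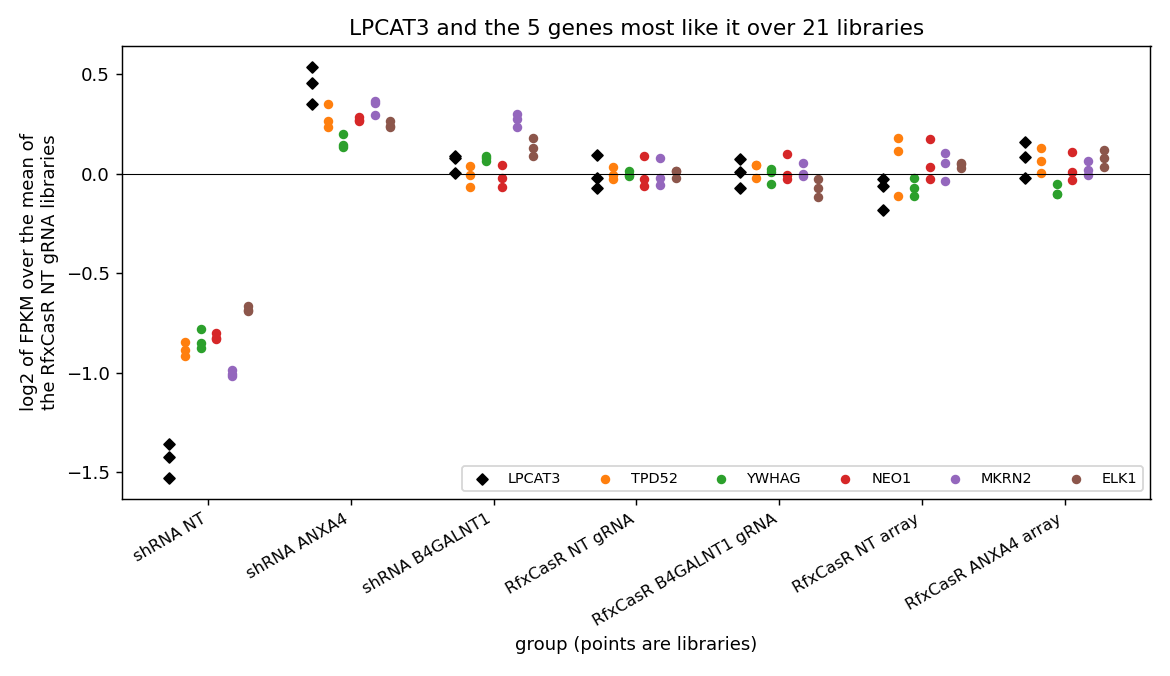
Log2 of FPKM relative to the mean of the RfxCasR NT gRNA libraries (y axis) for LPCAT3 (diamonds) and the 5 genes most correlated with it (circles) by group (x axis), each point a library. All 6 genes are lowest with the NT shRNA, with LPCAT3 farthest down, and all 6 have their highest group mean with the ANXA4 shRNA. The 5 genes were chosen for this likeness.

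The rest of the phospholipid pathway was read from 11 lists of 103 genes, of which 91 were tested. Between the ANXA4 and the B4GALNT1 shRNA, 36 of these were called higher and 15 lower (56.0% in all, beside 46.7% of all genes). Between the ANXA4 shRNA and the NT gRNA the counts were 31 and 18 (53.8%, beside 54.0% of all genes), and between the B4GALNT1 shRNA and the NT gRNA 14 and 23 (40.7%, beside 40.9%), so both shares were at the background. With RfxCasR, limma called 0 of the 91 for the B4GALNT1 gRNA and 0 for the arrays, beside 1 and 39 of all 13679 genes. At an unadjusted p under 0.05 there were 6 and 10 of the 91, beside 523 and 1474 of all genes. Against the NT shRNA, 35 were called higher and 20 lower with the ANXA4 shRNA, 23 and 30 with the B4GALNT1 shRNA, and 25 and 28 with the NT gRNA. Those shares were 60.4%, 58.2% and 58.2%, beside 51.8%, 44.4% and 48.9% of all genes, and the directions of all calls shift with centring as given above.

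Liver X receptors are nuclear receptors for oxysterols that pair with retinoid X receptors, and LPCAT3 is among their targets. Of 9 tested genes on that list, 4 were called higher and 1 lower with the ANXA4 shRNA against the NT gRNA, where 29.0% of all genes were called higher and 25.0% lower, so the number called is near the background. NR1H2, the receptor LXR beta, was at 20.3, 19.0 and 20.3 FPKM with the ANXA4 shRNA, 16.5, 18.3 and 18.7 with the B4GALNT1 shRNA and 8.92, 8.79 and 10.9 with the NT gRNA. It rose by 0.99 (SE 0.0827, limma adjusted p = 1.24e-08) and 0.84 (adjusted p = 2.34e-07) in these shRNA groups against the NT gRNA. RXRA, the partner receptor, fell by 0.41 with the ANXA4 shRNA (SE 0.0529, adjusted p = 3.05e-06). MYLIP, which degrades the LDL receptor, rose by 0.62 (SE 0.0812, adjusted p = 3.58e-06).

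Against the NT shRNA, the median difference of the 9 tested genes was -0.34 with the NT gRNA and -0.32 with the B4GALNT1 shRNA. It was -0.12 with the ANXA4 shRNA, while LPCAT3 was higher in each. The list mixes the receptors themselves with targets, and ABCA1, also on it, was not among the genes tested. A part of these receptors in the LPCAT3 values was not tested. With the NT gRNA 6 of the 9 were called lower and 0 higher, beside 26.5% and 22.4% of all genes. With the B4GALNT1 shRNA 6 were lower and 1 higher, beside 26.0% and 18.4%. With the ANXA4 shRNA 2 were lower and 1 higher, beside 26.3% and 25.6%. In either direction, 48.9%, 44.4% and 51.8% of all genes were called. NR1H2 was at 15.1 ± 0.821 FPKM (n = 3) with the NT shRNA, NR1H3, the receptor LXR alpha, at 11.7 ± 0.65, SREBF1, a lipogenic transcription factor, at 14.7 ± 0.796 and MYLIP at 5.51 ± 0.218. With the NT gRNA these genes were at 9.55, 7.79, 9.77 and 3.45 FPKM. NR1H2 was also below its means of 19.9 FPKM with the ANXA4 shRNA and 17.8 with the B4GALNT1 shRNA. For that gene the NT shRNA mean was thus the lowest of the shRNA groups, as for LPCAT3. Unlike LPCAT3, NR1H2 was higher with the NT shRNA than with RfxCasR, where its group means were 7.14 to 9.55 FPKM.

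Among the enzymes that make the substrates, the desaturases and elongases had 3 of 11 genes called higher and 2 lower between the ANXA4 and the B4GALNT1 shRNA. In that comparison 27.1% of all genes were called higher and 19.6% lower. Higher calls were 58.0% of all calls, and 48.0% with libraries centred on their median, which bears on the counts of every list there. SCD, which makes oleic acid, was at 337, 328 and 339 FPKM with the ANXA4 shRNA and 193, 187 and 200 with the B4GALNT1 shRNA. The difference was 0.79 (SE 0.0474, limma adjusted p = 1.06e-10). ELOVL1, an elongase of very long chains, differed by 0.96 (SE 0.0624, adjusted p = 3.62e-10). FADS1, the delta-5 desaturase on the route to arachidonic acid, differed by 0.39 (SE 0.0329, adjusted p = 1.46e-08). For SCD, ELOVL1 and FADS1 the B4GALNT1 shRNA mean was the lowest of the 7 groups. Against the NT gRNA, SCD differed by -0.67 and ELOVL1 by -0.8 with the B4GALNT1 shRNA. The ANXA4 shRNA mean was the highest for SCD and FADS1. For ELOVL1 it lay inside the range of the RfxCasR group means, 26.8 to 31.8 FPKM. Of 6 acyl-CoA synthetases, 3 were called higher and 1 lower, among them ACSL3 at 38.8 against 29.0 FPKM.

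The phospholipases A2 and lysophospholipases, which produce or remove lysophospholipids, split evenly there. Of 16 genes 4 were called higher and 4 lower, beside 27.1% and 19.6% of all genes. LYPLA2, a lysophospholipase-like thioesterase, was at 37.9 FPKM with the ANXA4 shRNA against 24.7 with the B4GALNT1 shRNA (0.60, SE 0.0434, limma adjusted p = 1.63e-09). The B4GALNT1 shRNA mean was the lowest of the 7 groups for LYPLA2, with 35.5 FPKM with the NT shRNA and 29.2 with the NT gRNA. PAFAH2, which hydrolyses platelet-activating factor, fell by 0.77 (SE 0.0555, adjusted p = 1.58e-09). PLA2G12A, a secreted phospholipase A2, was at 5.66 ± 0.32 FPKM with the ANXA4 shRNA, 6.82 ± 0.214 with the B4GALNT1 shRNA and 10.8 ± 0.282 with the NT gRNA. It fell by 0.83 and 0.59 in these shRNA groups against the NT gRNA (adjusted p = 1.46e-11 and 3.45e-09).

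Lysophosphatidic acid acyltransferases, a list that also holds LCLAT1, known for remodelling cardiolipin, had 5 of 7 genes called higher and 0 lower between the ANXA4 and the B4GALNT1 shRNA. The shares of all genes were 27.1% and 19.6%, a balance that turned with median centring. The median difference of the list was 0.17, beside 0.03 for all genes. AGPAT5 was at 17.1 FPKM against 14.2 (0.25, SE 0.0427, limma adjusted p = 8.29e-05), LCLAT1 at 9.28 against 6.94, and ABHD5 at 3.92 against 3.00. Against the NT gRNA AGPAT5 rose by 0.57 with the ANXA4 shRNA and by 0.32 with the B4GALNT1 shRNA, and AGPAT2 fell by 0.41 and 0.47. The cardiolipin and lysosomal remodelling genes had 4 of 6 called higher and 0 lower between the 2 targeting shRNAs, among them HADHA (0.24), PLA2G15 (0.45) and PGS1 (0.44). Of 3 tested glycerol-3-phosphate acyltransferases 2 were called higher, GPAT4 (0.18) and GPAM (0.21). Of 4 other MBOAT superfamily enzymes limma called 0, with 1 at an unadjusted p under 0.05.

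In de novo synthesis of phosphatidylcholine and phosphatidylethanolamine, 8 of 17 genes were called higher and 4 lower between the targeting shRNAs, beside 27.1% and 19.6% of all genes. CHPT1, the Golgi cholinephosphotransferase, was at 38.7 against 29.5 FPKM (0.38, SE 0.0521, limma adjusted p = 6.77e-06), and CEPT1, which shares its reaction, was lower (-0.41, SE 0.0559, adjusted p = 6.77e-06). Of 6 phosphatidylinositol synthesis genes 2 were called higher and 1 lower, and CDS1, a CDP-diacylglycerol synthase, was the lower one (-0.30). Of 6 genes of ether lipid synthesis 3 were called higher and 2 lower, and TMEM189, the plasmalogen desaturase, was among the higher (0.38).

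**Figure D5:**
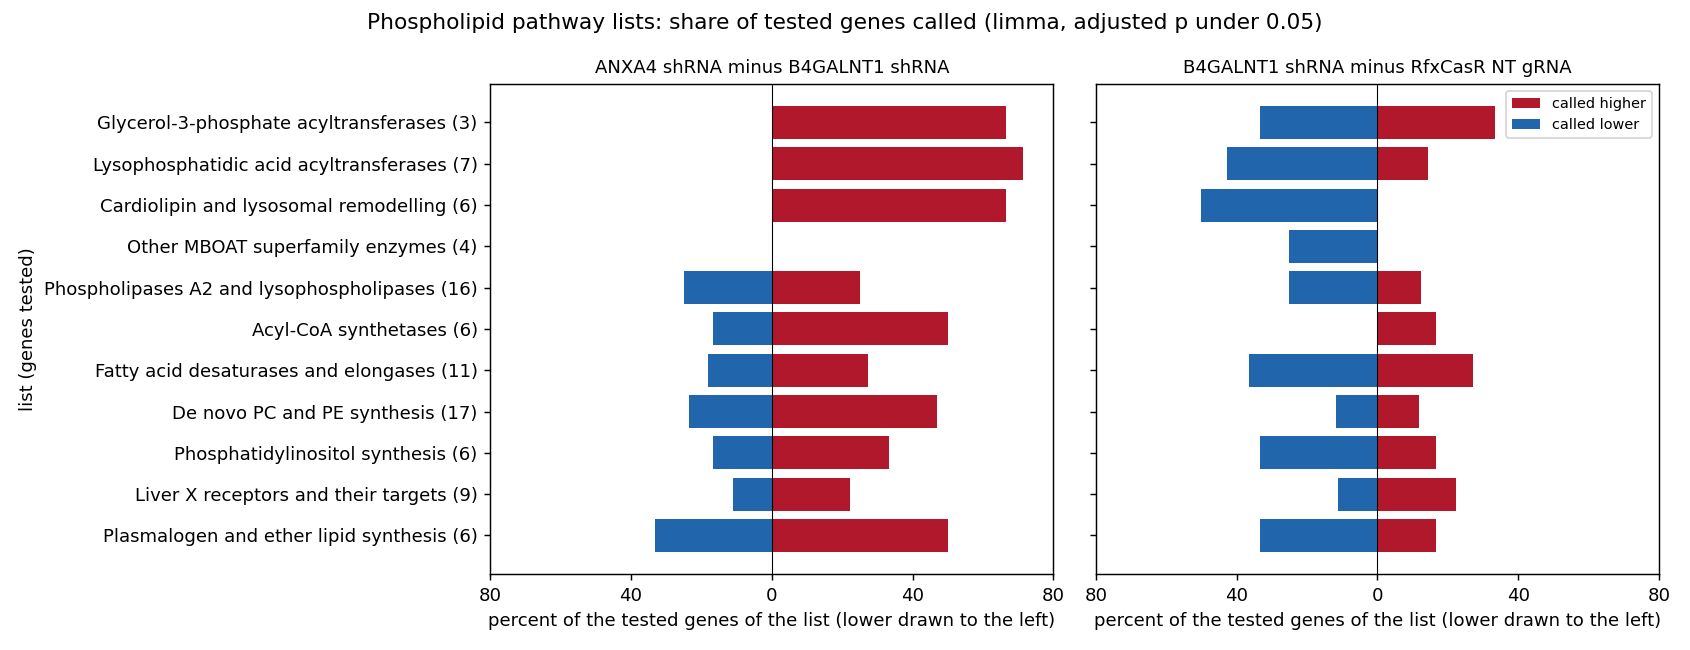
Share of the tested genes of each of 11 lists (y axis, number tested in brackets) called higher (red, to the right) or lower (blue, to the left) as a percent (x axis), between the ANXA4 and B4GALNT1 shRNA (left panel) and between the B4GALNT1 shRNA and the RfxCasR NT gRNA (right panel). In the left panel 3 lists have calls only to the right, and in the right panel the cardiolipin list has 3 of 6 genes to the left and none to the right. Of all genes, 27.1% were called higher and 19.6% lower in the comparison of the left panel, a balance that turned with median centring. In that of the right panel 2652 of 13679 genes were called higher and 2938 lower, 40.9% in either direction.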

How the data were processed

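Stranded mRNA libraries of 21 HEK 293FT samples were analysed. The submitters' processing notes name build hg19 and, in no stated order, STAR, FastQC, HOMER, R 3.3.2 and DESeq2 1.14.1. The authors deposited FPKM values, which per the file headers HOMER counted in exons on the sense strand and condensed to genes. The 4 deposited comparison tables hold a signal per gene, taken here as a mean normalized count, its log2 fold change and its adjusted p-value, all used as the authors' values.

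Reads were recovered as FPKM times exon length times a depth, fitted in each library so that the products came out whole. The fitted depths were 21.4 to 39.5 M reads per library. At these depths 100.0% of the values precise enough to tell were whole within 0.1, a share that the fit itself sought. Genes reaching 1 FPKM in 3 or more libraries entered the test as log2(FPKM + 1) with limma 3.58.1 in R 4.3.3, in one model of the 7 groups with a variance trend. A call is a Benjamini-Hochberg adjusted p under 0.05 over all genes tested. The test was checked on simulated data with independent normal noise, whose spread for a gene was the same in all groups. In the data, recovered reads of array replicates differed more, with a chi-square per degree of freedom of 5.91 to 13.0 between pairs. The other groups had 2.25 to 4.16, so the check does not cover a spread that differs between groups. The replicates are described as biological, without saying how they were kept apart, and the p-values cover only the spread seen among them.

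The 8 members and the gene lists were chosen with earlier results of these data known. Named genes are the members, the 5 genes most correlated with LPCAT3, up to 3 called genes per list and comparison (by p, or by size where the NT shRNA is used) and both targets; LPCAT3 neighbours and overlapping genes were added for their position. Not every gene so chosen is named. Alternatives were a pseudocount of 0.1, other filters, centring, quantile normalization, no trend, a replicate block, voom, a threshold of 0.01, fewer groups, the authors' tables and leaving out each library. Sequences were not used here.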

Additional observations from a re-analysis of the deposited data

Results flagged for a closer look

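In a contrast added after the data were seen, 4 of the 8 members stood out between the methods, as a description only. The shRNA difference (B4GALNT1 minus NT) minus the RfxCasR gRNA difference (B4GALNT1 minus NT) was 1.35 for LPCAT3, 0.44 for LPCAT1, 0.35 for LPGAT1 and 0.27 for MBOAT7 on the log2(FPKM + 1) scale. The same contrast called 29.8% of all genes, of which 43.2% were higher, or 55.1% with libraries centred on their median. It uses the NT shRNA libraries that chose the members, so no p is given, and the values do not test whether the effect of targeting B4GALNT1 differs between the methods. With the gRNA, none of these 4 genes was called against its own control, and the differences were 0.01, -0.05, -0.10 and -0.04.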

How the results depend on the processing

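No called member value changed sign. The balance of calls over all genes crossed 50% with median centring in 6 of the 8 comparisons, and the larger shifts are given beside them. Of the member values under the alternatives, 1250 stayed on their side of the threshold, 17 gained and 18 lost a call, and 11 moved without a call. Of these, 40 values changed sign with no call on either side. Counts of members called in the B4GALNT1 shRNA against NT gRNA comparison went from 0 to 1 (LPCAT1) with quantile normalization, voom, a model without the array libraries and a model of the groups compared. For RfxCasR with the B4GALNT1 gRNA, genes called went from 1 to 2 with no filter, with the replicate block and in the authors' deposited table, and to 3 with 1 FPKM required in all 21 libraries and without the array libraries. For the arrays they went from 39 to 114 with voom, 7 at a threshold of 0.01, 3 with only the groups compared and 8 in the authors' deposited table. Leaving out 1 library gave 23 to 55 genes for the arrays, with 23 without ANXA4 array replicate 2, and 4 to 6 members for the NT gRNA against the NT shRNA.

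The replicate numbers are shared only as numbers. Deviations of same-numbered libraries correlated at -0.146 to 0.09 over the 8 comparisons, and all 3 numbers correlated best with their own number in 2 of the 8. With the replicate block the number of members called kept its value in each of the 8 comparisons. MBOAT1, at 136 to 377 recovered reads per library, had the lowest range of the members, with the read scale uncertain as stated.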
